A study of Mus musculus with 6 samples.

Results

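The genes described here are 39 interferon-stimulated and antigen presentation genes, measured by RNA-seq in cultured satellite cells (SCs), the stem cells of skeletal muscle. They were taken by name from the deposited gene tables, where all 39 were found among 35976 genes, and 34 had more than 10 counts in at least 2 libraries and could be tested. The samples were 3 libraries of NF-YA cKO SCs and 3 of NF-YA fl/fl SCs that had been isolated from mice and grown in culture. NF-YA is the part of the transcription factor NF-Y that recognises the sequence CCAAT. All mice carried floxed Nfya alleles and, per the labels, were 5 to 7 weeks old and received tamoxifen at 20 mg per ml. NF-YA cKO mice carried in addition a tamoxifen-inducible Cre recombinase driven by Pax7, which acts in Pax7-expressing cells, so that other cells of a culture keep the floxed gene. The methods of the study describe SCs obtained by magnetic depletion of cells that carry CD31, CD45, CD11b or Sca1. The question addressed here was whether this gene program differed between the genotypes.

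Cells that sense foreign nucleic acid secrete type I interferons, whose receptor signals through JAK kinases to a complex that holds STAT2 and IRF9. This complex binds the interferon-stimulated response element (ISRE) and switches on genes that block viral RNA and protein synthesis. Interferon gamma acts through GAS elements and induces IRF1, which raises the immunoproteasome, peptide transporters and MHC class I molecules that show peptides to T cells.

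The promoters of members show where these elements lie, and 6 that carry the ISRE or the CCAAT box in the bases just upstream of the start are printed. Gbp2, Gbp3, Gbp7, Oas3, Rsad2, Irf1, H2-K1 and Psmb9 also carry one there and are not printed. Of the 6, all but B2m are among the members with an FDR under 0.05 given below, so that this choice shows no link between motif and change. The sequences are the 120 bases before the start in the RefSeq promoter table (GRCm38.p6), read 5′ to 3′ on the strand of the gene. Capitals mark the ISRE pattern GAAANNGAAA and the CCAAT box on either strand, so that they also appear as their reverse complements.
Ifit1: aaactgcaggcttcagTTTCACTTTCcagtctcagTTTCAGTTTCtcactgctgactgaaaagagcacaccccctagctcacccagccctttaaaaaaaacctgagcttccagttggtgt
Isg15: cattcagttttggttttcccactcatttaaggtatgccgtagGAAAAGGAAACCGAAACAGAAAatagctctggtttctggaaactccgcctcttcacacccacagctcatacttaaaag
Oas1a: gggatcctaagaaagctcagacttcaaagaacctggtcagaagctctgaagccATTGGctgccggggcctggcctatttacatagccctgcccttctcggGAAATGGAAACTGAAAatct
B2m: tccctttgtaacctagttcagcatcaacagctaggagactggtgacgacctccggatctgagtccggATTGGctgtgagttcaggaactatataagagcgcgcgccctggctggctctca
H2-D1: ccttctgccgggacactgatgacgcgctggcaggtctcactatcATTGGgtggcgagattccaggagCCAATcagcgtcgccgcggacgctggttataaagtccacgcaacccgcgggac
Stat2: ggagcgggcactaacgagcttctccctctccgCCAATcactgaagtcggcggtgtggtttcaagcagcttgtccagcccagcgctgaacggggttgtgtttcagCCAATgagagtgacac
These windows lie at chr19:34640769-34640888 on the plus strand (Ifit1), chr4:156200819-156200938 on the minus strand (Isg15) and chr5:120907526-120907645 on the minus strand (Oas1a). The others lie on the plus strand, at chr2:122147567-122147686 (B2m), chr17:35262974-35263093 (H2-D1) and chr10:128270378-128270497 (Stat2). In the window of Ifit1 the ISRE pattern begins 104 and 85 bases before the start, and in that of Isg15 3 overlapping matches cover the bases from 78 to 57 before it. Oas1a combines a CCAAT box 67 to 63 bases upstream with 2 overlapping ISRE matches that end 5 bases before the start. The windows of B2m, H2-D1 and Stat2 hold 1, 2 and 2 CCAAT boxes and no ISRE pattern, although B2m and Stat2 have a match farther upstream.
The table held 36 promoters of 31 members, each with 250 bases before and 50 bases after the start. The ISRE pattern was found on either strand in 15 of the 36 (41.7%), and in 1131 of all 32851 promoters (3.44%). For the GAS pattern TTCNNNGAA the shares were 22.2% (8 of 36) and 8.30%. The CCAAT box was found in 15 of the 36 promoters (41.7%), and in 37.4% of all promoters. Matches of one pattern could overlap those of another, and a match says only that the letters are there.

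Totals of 26936230 to 41118984 expected counts per library make a count of 3 equal to 0.0705 to 0.115 CPM, the count scaled to library size with TMM factors. Nfya was at 27.5 ± 0.874 CPM (NF-YA cKO) and 28.7 ± 7.20 CPM (NF-YA fl/fl, mean ± SD, n = 3), and the transcript entry for its deleted allele took 22.3% to 34.2% of the Nfya counts in NF-YA cKO and 0 counts in every NF-YA fl/fl library. The genotypes also differed in Xist (843 against 0.389 CPM) and in the Y-linked Ddx3y (0.0636 against 84.9 CPM), and an effect of genotype cannot be told apart from one of sex. Replicates were less alike in NF-YA fl/fl, where the biological coefficient of variation was 0.310, against 0.105 in NF-YA cKO. The replicate 3 library of NF-YA fl/fl was the highest of the 6 libraries in 10 and the lowest in 9 of the 34 tested members, and in 27.2% and 26.4% of all tested genes. The replicate 1 library of NF-YA cKO was the highest in 12 of the 34 (35.3%), against 14.6% of all tested genes, and the members' median log2 fold change was 0.10 without it and 0.11 with it. Values without NF-YA fl/fl replicate 3 are given where its omission changed a call or a sign. They are also given for Oasl2, Psmb8, Psmb9, Tap2, H2-D1, Stat2 and Irf9, picked with the values known, where it changed neither.

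Of the tested members 1 was called in each direction between the genotypes, a share near that of all genes. Oas1a, whose product makes an activator of RNA decay, was higher and Ifit1, an inhibitor of viral translation, was lower in NF-YA cKO, while 32 of the 34 tested members were not called. A call required an FDR under 0.01 in edgeR's quasi-likelihood test, adjusted over all 17348 tested genes, together with a log2 fold change beyond 1 in either direction. Of all tested genes, 4.65% were called higher and 7.67% lower, and 1 member of 34 in each direction is near this background. The log2 fold changes of the members had a median of 0.11 (all tested genes -0.02), with 19 above 0 and 15 below. At an FDR under 0.05 with no fold threshold, 3 members were higher (Oas1a, Xaf1 and H2-D1; background 19.7%) and 5 were lower (Ifit1, Isg15, Ifit3, Stat2 and Irf9; background 18.9%). In 6 tested members all NF-YA cKO libraries lay above those of NF-YA fl/fl, and in 9 all lay below, where 29.1% and 26.2% of all tested genes showed such a separation. Of the 34, 29 passed the filter on low counts in either group alone, whereas Oas1a, Gbp3 and Psmb9 passed only through NF-YA cKO, and Isg15 and Oas3 only through NF-YA fl/fl.

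**Figure D1:**
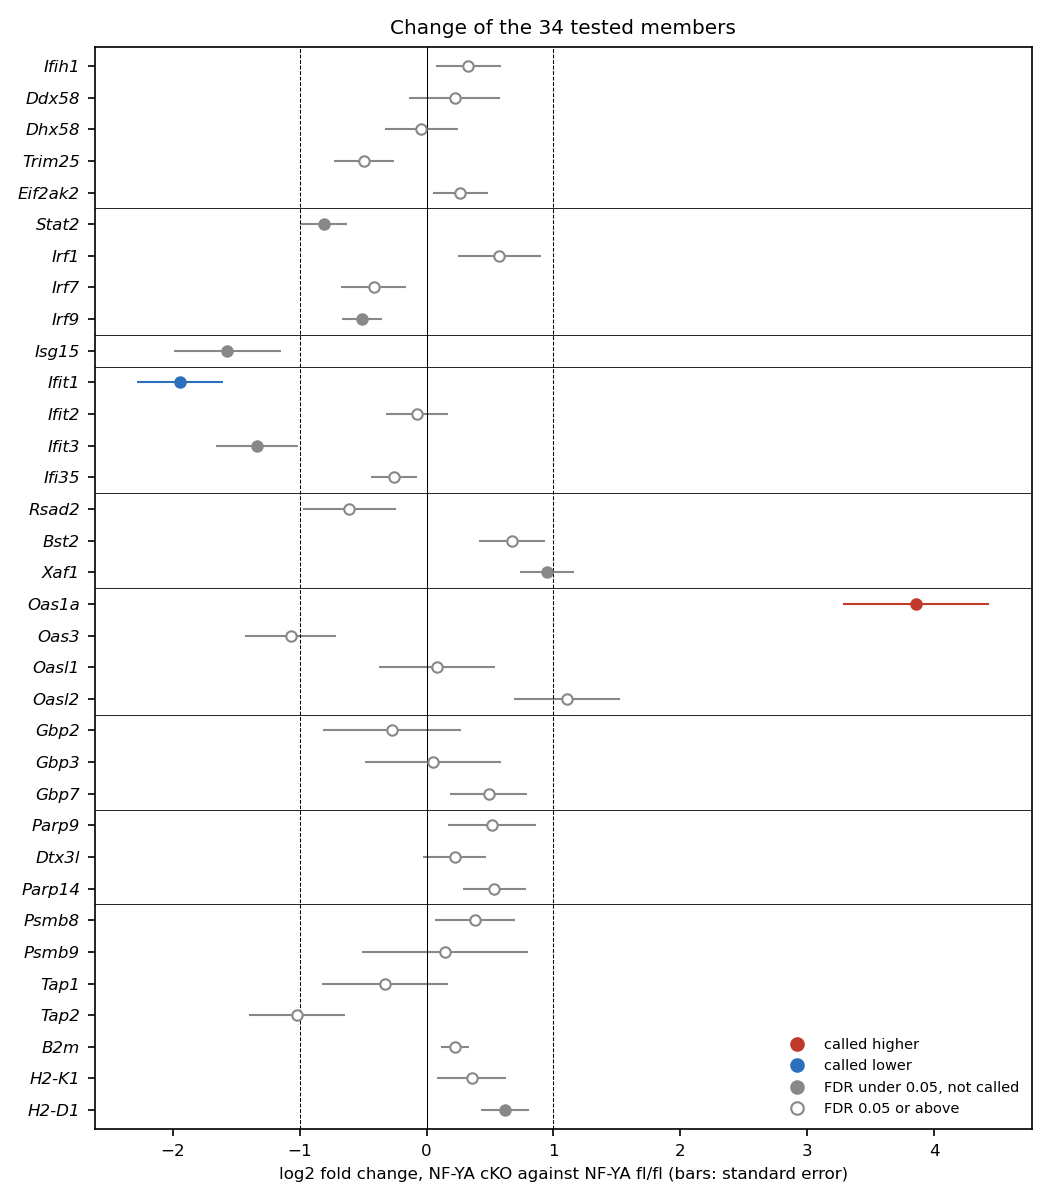
The log2 fold change of each tested member, NF-YA cKO against NF-YA fl/fl, is plotted with its standard error, in blocks by role. Oas1a (3.86) lies far to the right and Ifit1 (-1.94) farthest to the left, and most other members lie between the dashed lines at -1 and 1.

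Levels between genes can be compared as TPM, which is scaled to transcript length. The antigen presentation members made up 77.5% to 82.4% of the summed TPM of the 39 members in every library. B2m had the highest mean over the 6 libraries (141 TPM), followed by H2-D1 (37.5 TPM), H2-K1 (25.1 TPM) and Tap2 (14.2 TPM). Trim25 (7.93 TPM), Ifi35 (7.70 TPM) and Bst2 (7.28 TPM) came next, and their ranges over the 6 libraries overlapped. At the other end, the interferon-stimulated genes Mx1, Mx2, Oas2, Ifi44 and Usp18 were each at 12 counts or fewer in every library and were not tested.

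**Figure D2:**
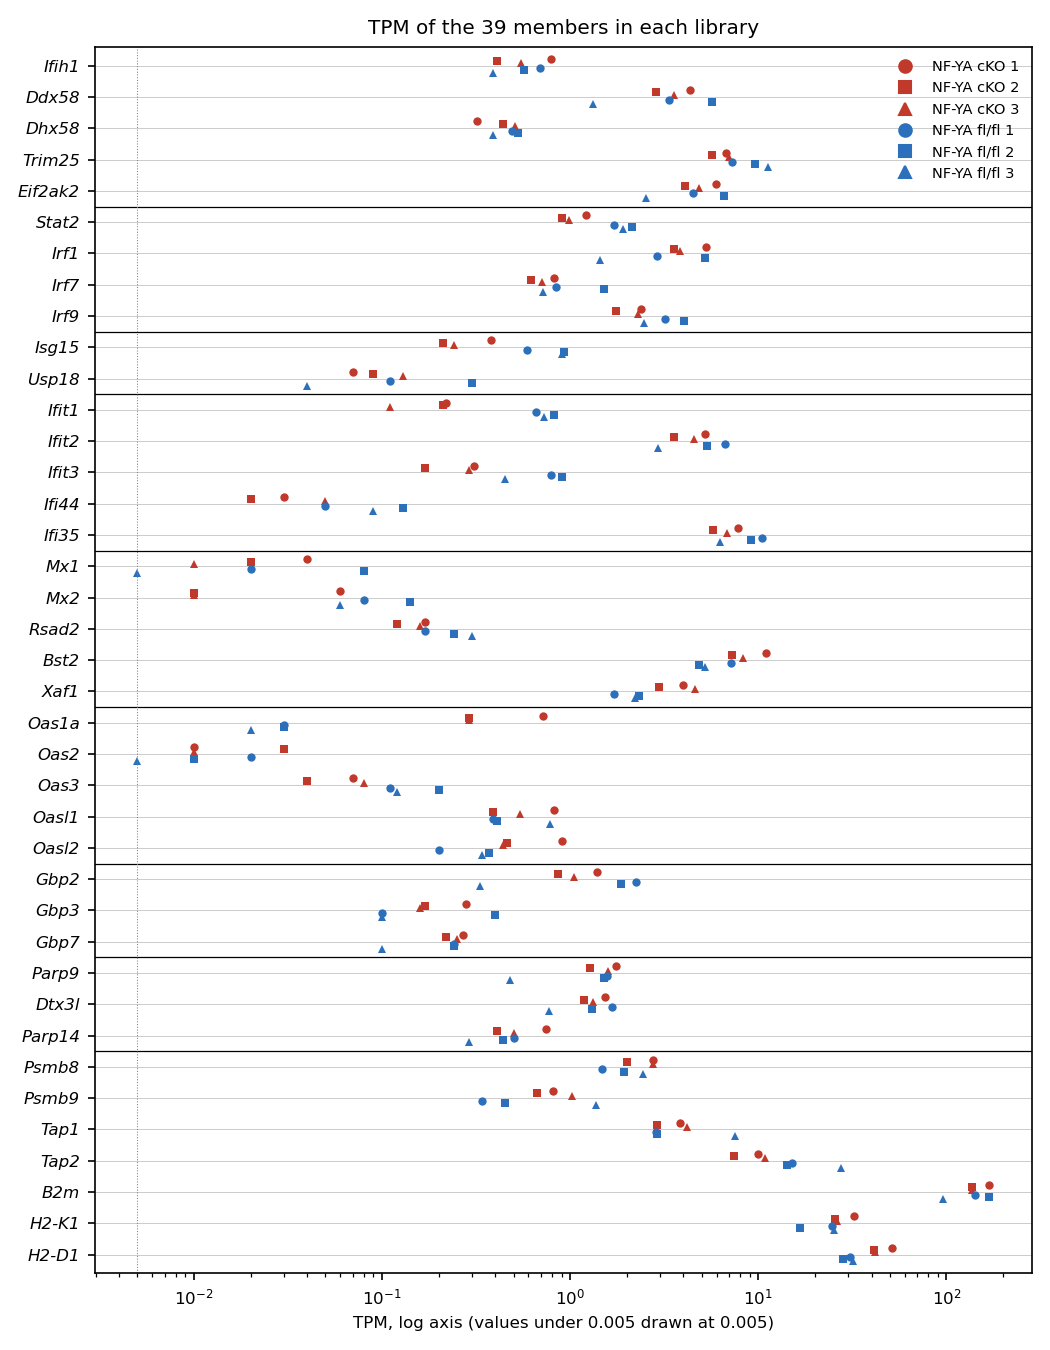
The TPM of each member is plotted by library on a log axis, with NF-YA cKO in red and NF-YA fl/fl in blue and lines between the roles. B2m lies to the right of all others, H2-D1 has the next highest mean, and the points of H2-K1 (16.58 to 32.26 TPM) and Tap2 (7.43 to 27.67 TPM) overlap.

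Among the antigen presentation members, none of 7 was called. B2m, the light chain of all MHC class I molecules, was at 101, 96.5 and 86.3 CPM in NF-YA cKO, whereas the NF-YA fl/fl libraries had 86.3, 84.6 and 72.0 CPM. The groups met at their edges, and the log2 fold change was 0.23 (standard error 0.11, FDR = 0.148). H2-D1, a class I heavy chain, was at 71.2, 66.6 and 59.8 CPM in NF-YA cKO, whereas the NF-YA fl/fl libraries had 42.7, 32.2 and 54.1 CPM. All NF-YA cKO libraries were higher (log2 fold change 0.62, standard error 0.19, FDR = 0.0401), or 1.53-fold. The FDR of H2-D1 was 0.130, 0.124 and 0.0750 without NF-YA cKO replicate 1, 2 or 3. It was 0.108, 0.0498 and 0.00387 without NF-YA fl/fl replicate 1, 2 or 3. H2-K1, the other classical heavy chain, was at 38.9 ± 3.36 and 30.4 ± 11.3 CPM, with overlapping groups and a log2 fold change of 0.36 (FDR = 0.333). Reads of H2-K1, H2-D1 and other class I genes, among them H2-T23 below, can match one another. The authors' counting splits such reads by an estimate.
The immunoproteasome subunits Psmb8 and Psmb9 and the peptide transporter subunits Tap1 and Tap2 are neighbours on chromosome 17 (34182030 to 34216321, GRCm38). In all 4 the replicate 3 library of NF-YA fl/fl was the highest of the 6 libraries, at 1.94 to 5.27 times the mean of the other NF-YA fl/fl libraries. Tap2 was at 20.4, 17.9 and 22.9 CPM in NF-YA cKO, whereas the NF-YA fl/fl libraries had 31.2, 24.2 and 69.0 CPM. Every NF-YA cKO library was below the NF-YA fl/fl libraries (log2 fold change -1.02, standard error 0.38, FDR = 0.0704), and without replicate 3 of NF-YA fl/fl the log2 fold change was -0.45 (FDR = 0.0472).
Tap1 was at 9.34, 8.35 and 10.6 CPM in NF-YA cKO, whereas the NF-YA fl/fl libraries had 7.11, 5.89 and 22.5 CPM. The NF-YA cKO libraries thus lay between the NF-YA fl/fl libraries, and the log2 fold change of -0.33 became 0.54 without that replicate (FDR = 0.0359). Psmb9 was at 0.510, 0.483 and 0.611 CPM against 0.191, 0.208 and 1.05 CPM (log2 fold change 0.15), and its log2 fold change was 1.40 without the same library (FDR = 0.0202). With that library left out, Psmb9 had 16, 20 and 26 counts in NF-YA cKO against 5 and 7. It then passed the filter on low counts only through NF-YA cKO, so that this FDR is conditioned on the difference. Psmb8 was at 2.46 ± 0.255 and 1.88 ± 0.782 CPM (log2 fold change 0.38, FDR = 0.366), and its log2 fold change was 0.77 without that library (FDR = 0.0267).
The 3 constitutive proteasome subunits that the immunoproteasome subunits replace were not called either, with a median log2 fold change of 0.31. Of the 20 tested genes of a list of other class I genes, 2 were called higher and 0 lower (background 4.65% and 7.67%), with a median of 0.23. H2-T23, the non-classical class I molecule Qa-1, rose from 26.1 ± 4.12 to 64.1 ± 8.14 CPM (log2 fold change 1.29, FDR = 0.00150). Cd1d1, which presents lipids, rose from 1.91 ± 0.666 to 5.23 ± 0.548 CPM (log2 fold change 1.45, FDR = 0.00815). The chaperones Canx and Calr, the highest of that list by CPM, were not called (log2 fold changes 0.23 and 0.56).

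**Figure D3:**
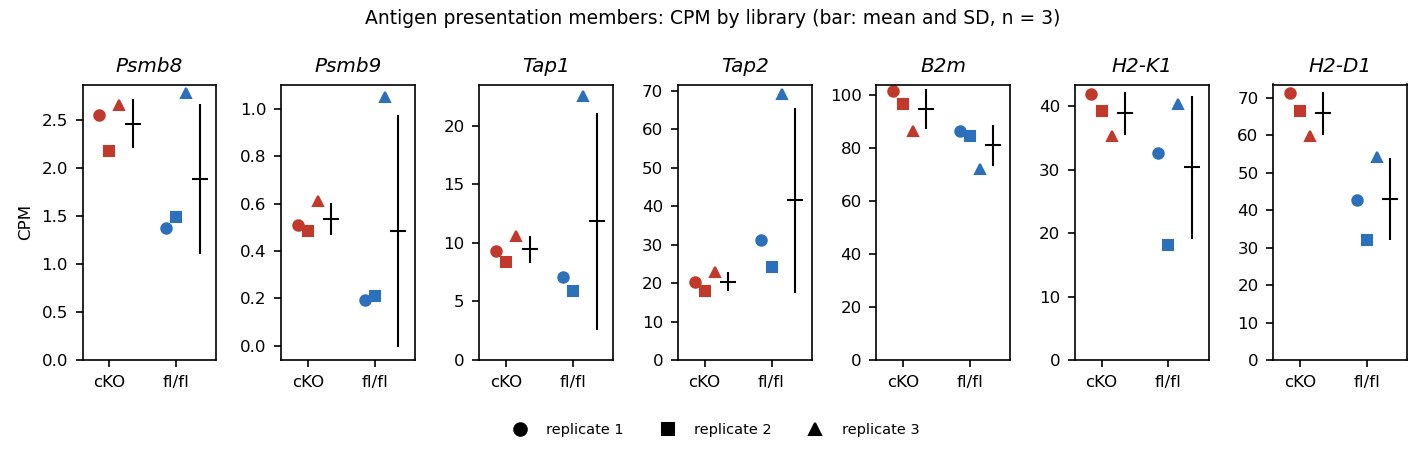
CPM of the 7 antigen presentation members by library, with the mean and SD (n = 3) beside the points of each genotype. In Psmb8, Psmb9, Tap1 and Tap2 the triangle of NF-YA fl/fl (replicate 3) lies above all other points, while H2-D1 is higher in all NF-YA cKO libraries.

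None of the 5 nucleic acid sensors and kinases was called, and they had log2 fold changes between -0.49 and 0.33. Trim25, the ubiquitin ligase that activates RIG-I, was at 32.2, 31.8 and 34.4 CPM in NF-YA cKO, whereas the NF-YA fl/fl libraries had 35.02, 37.9 and 65.3 CPM. All NF-YA cKO libraries were lower, but the log2 fold change of -0.49 had an FDR of 0.144. Ddx58, which encodes RIG-I, was at 16.0 ± 2.02 and 13.7 ± 6.61 CPM, and the kinase gene Eif2ak2 (PKR) at 18.8 ± 2.02 and 15.6 ± 4.28 CPM. In both the replicate 3 library of NF-YA fl/fl was the lowest, and without it the log2 fold change of Ddx58 turned from 0.22 to -0.11. Ifih1 (MDA5) and Dhx58 (LGP2) were near 2.58 against 2.05 and 0.903 against 0.935 CPM. In a list of other receptors, sensors, adaptors, kinases and factors of nucleic acid and microbial sensing, none of 16 tested genes was called (median log2 fold change -0.03). Log2 fold changes in this list ran from -1.79 to 2.22. At an FDR under 0.05 with no fold threshold, 3 of its genes were higher and 2 lower (background 19.7% and 18.9%). Tlr4, the endotoxin receptor and high in that list by CPM but not by TPM, was at 37.9 ± 0.526 CPM (NF-YA cKO) and 65.9 ± 8.54 CPM (NF-YA fl/fl), with a log2 fold change of -0.80 (FDR = 0.00270), under the fold threshold.

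Of the 4 transcription factors, Stat2 and Irf9, which belong to the ISRE-binding complex, had an FDR under 0.05 and did not pass the fold threshold. Stat2 was at 4.53, 3.96 and 3.83 CPM in NF-YA cKO, whereas the NF-YA fl/fl libraries had 6.50, 6.48 and 8.62 CPM. The groups did not overlap, and the log2 fold change was -0.81 (standard error 0.19, FDR = 0.0148). The FDR of Stat2 was 0.0392, 0.0585 and 0.0566 without NF-YA cKO replicate 1, 2 or 3. It was 0.0283, 0.0156 and 0.0130 without NF-YA fl/fl replicate 1, 2 or 3. Irf9, which gives the complex its DNA-binding specificity, was at 4.78, 4.13 and 4.70 CPM in NF-YA cKO, whereas the NF-YA fl/fl libraries had 6.46, 6.78 and 6.11 CPM (log2 fold change -0.51, standard error 0.16, FDR = 0.0401). Here too every NF-YA cKO library was lower. The FDR of Irf9 was 0.0987, 0.135 and 0.0996 without NF-YA cKO replicate 1, 2 or 3. It was 0.0805, 0.0576 and 0.0238 without NF-YA fl/fl replicate 1, 2 or 3.
Irf1, the most abundant of the 4 by mean TPM over the 6 libraries, although Irf9 had the higher mean in NF-YA fl/fl (3.24 against 3.18 TPM), was at 9.12, 7.29 and 6.86 CPM in NF-YA cKO, whereas the NF-YA fl/fl libraries had 5.05, 7.49 and 3.05 CPM. Its groups overlapped (log2 fold change 0.57, FDR = 0.202). Irf7, the amplifier of the interferon response, was at 1.09 ± 0.0770 and 1.45 ± 0.341 CPM (log2 fold change -0.42, FDR = 0.237).

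The interferons themselves were hardly detected in either genotype. None of 12 ligand genes passed the filter, and their summed level was 0.169 to 0.259 CPM (NF-YA cKO) and 0.271 to 0.506 CPM (NF-YA fl/fl). Of the 12, 6 had 0 counts in all 6 libraries, among them Ifnb1 and Ifng (named after their values were seen), which allows up to 0.0705 to 0.115 CPM in a library. The receptors and kinases that relay the signal were all tested (11 of 11), and 1 was called lower and 0 higher (background 7.67% and 4.65%). Jak1 was at 152 ± 12.2 CPM (NF-YA cKO) and 159 ± 17.0 CPM (NF-YA fl/fl) (log2 fold change -0.06). Stat3, a factor downstream of interleukin 6 and other cytokines, fell from 176 ± 15.2 to 74.5 ± 15.4 CPM (log2 fold change -1.24, FDR = 0.00189). Among 15 negative regulators, Rnaseh2b alone was called, and rose from 8.63 ± 1.22 to 19.7 ± 0.403 CPM (log2 fold change 1.19, FDR = 0.00138). It encodes a subunit of ribonuclease H2, which removes RNA:DNA hybrids. Ptpn2 and Ptpn11, phosphatases of the pathway and the highest of that list by CPM, had log2 fold changes of 0.56 and -0.04.

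Ifit1, Isg15 and Ifit3 had the most negative log2 fold changes of the tested members. Isg15, a ubiquitin-like protein that is attached to other proteins, was at 0.191, 0.121 and 0.118 CPM in NF-YA cKO, whereas the NF-YA fl/fl libraries had 0.306, 0.387 and 0.577 CPM. These values rest on 5 to 6 counts per NF-YA cKO library and 8 to 17 counts per NF-YA fl/fl library. All NF-YA cKO libraries were lower (log2 fold change -1.57, standard error 0.42, FDR = 0.0249). The FDR was 0.0892 and 0.0854 without NF-YA cKO replicate 2 or 3. It was 0.0452 without NF-YA cKO replicate 1 and 0.0326 without NF-YA fl/fl replicate 1. Without NF-YA fl/fl replicate 2 or 3, Isg15 did not pass the filter and was not tested. It passed the filter on low counts only through NF-YA fl/fl, the group where it is high, so that its place among the members lower at an FDR under 0.05 is conditioned on that difference. The ratio of the summed counts, scaled to library size, was 0.326 (95% exact interval 0.170 to 0.598, counting error only).
Ifit1, which binds viral RNA that lacks the host cap structure, was at 0.478, 0.531 and 0.259 CPM in NF-YA cKO, whereas the NF-YA fl/fl libraries had 1.45, 1.49 and 1.93 CPM. The highest NF-YA cKO library was thus under the lowest NF-YA fl/fl library, and Ifit1 fell by 1.94 on the log2 scale (standard error 0.34, FDR = 0.00528), or 3.84-fold. The call was lost without NF-YA cKO replicate 1, 2 or 3 (FDR = 0.0221, 0.0192 and 0.0180) and without NF-YA fl/fl replicate 1 (FDR = 0.0166). The ratio of the summed counts (48 against 145) was 0.256, with an exact 95% interval from 0.181 to 0.357.
Ifit3, its partner protein, was at 0.510, 0.314 and 0.494 CPM against 1.2997, 1.19 and 0.848 CPM. The groups did not overlap, and the log2 fold change was -1.34 (standard error 0.32, FDR = 0.0173). Without NF-YA fl/fl replicate 3 it was called lower (FDR = 0.00844). Its FDR was above 0.05 without NF-YA cKO replicate 2 (0.0678) and without NF-YA fl/fl replicate 1 (0.0527). Ifit1, Ifit2 and Ifit3 lie in a cluster on chromosome 19 (34550550 to 34650009, GRCm38), with Ifit3b, which is not a member, between Ifit3 and Ifit1. Reads shared between related genes, such as Ifit3 and Ifit3b, are split by an estimate in the authors' counting. Ifit2 did not share the pattern of its neighbours, at 15.7 ± 1.64 and 16.5 ± 5.64 CPM (log2 fold change -0.07, FDR = 0.835).
Ifi35, the most abundant of this group by TPM, was at 8.16, 7.07 and 7.38 CPM in NF-YA cKO, whereas the NF-YA fl/fl libraries had 11.0, 7.97 and 8.04 CPM. The groups overlapped (log2 fold change -0.26, FDR = 0.295).

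The antiviral effectors Bst2, Xaf1 and Rsad2 were tested, whereas Mx1 and Mx2 were not. Bst2 (tetherin), which holds budding virus at the cell surface, was at 5.74, 4.49 and 4.56 CPM in NF-YA cKO, whereas the NF-YA fl/fl libraries had 3.78, 2.11 and 3.39 CPM. Every NF-YA cKO library was higher (log2 fold change 0.67, standard error 0.26, FDR = 0.0819). Xaf1, a binding partner of the apoptosis inhibitor XIAP, was at 7.62, 6.71 and 9.14 CPM in NF-YA cKO, whereas the NF-YA fl/fl libraries had 3.44, 3.72 and 4.99 CPM. The groups did not overlap, and the log2 fold change was 0.95 (standard error 0.21, FDR = 0.0136), just under the fold threshold. Without NF-YA fl/fl replicate 3 it was called higher (log2 fold change 1.12, FDR = 0.00351). Rsad2 (viperin) was at 0.506 ± 0.0429 and 0.771 ± 0.334 CPM (log2 fold change -0.61, FDR = 0.228).

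The oligoadenylate synthetases, which make the second messenger that activates RNase L, had log2 fold changes of both signs. Oas1a was at 0.829, 0.386 and 0.423 CPM in NF-YA cKO, whereas the NF-YA fl/fl libraries had 0.0382, 0.0297 and 0.0339 CPM, from 26, 16 and 18 counts against 1 count in each library. It was the only member called higher (log2 fold change 3.86, standard error 0.58, FDR = 0.00297). It had to differ to pass the filter, since only NF-YA cKO libraries had more than 10 counts. The ratio of the summed counts was 15.5, with an exact 95% interval from 5.05 to 77.2 for counting error only. The call was lost without NF-YA cKO replicate 2 or 3 (FDR = 0.0111 and 0.0105) and without NF-YA fl/fl replicate 1 or 2 (FDR = 0.0148 and 0.0108). Oas1a lies in a cluster of related genes on chromosome 5 (120896256 to 120907544, GRCm38), so that its count is an estimate of a split.
Oas3 was at 0.278 ± 0.0802 and 0.584 ± 0.115 CPM and all NF-YA cKO libraries were below (log2 fold change -1.07, FDR = 0.0511). It passed the filter only through NF-YA fl/fl, the group where it is higher, so that these values are conditioned on the difference. Oasl2 was at 1.95, 1.09 and 1.03 CPM against 0.382, 0.565 and 0.916 CPM, all NF-YA cKO libraries above (log2 fold change 1.11, FDR = 0.0760). Without NF-YA fl/fl replicate 3 its log2 fold change was 1.47 (FDR = 0.0263), still not called. Oasl1, the most abundant of the tested synthetase genes by mean TPM over the 6 libraries, although Oasl2 had the higher mean in NF-YA cKO (0.600 against 0.583 TPM), was at 1.47, 0.845 and 0.964 CPM in NF-YA cKO, whereas the NF-YA fl/fl libraries had 0.726, 0.624 and 1.73 CPM. Its groups overlapped (log2 fold change 0.08, FDR = 0.904), and the sign changed when any of 3 libraries was left out.

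The guanylate-binding proteins, large GTPases that attack the vacuoles of intracellular microbes, are 3 members on chromosome 3, and none was called. Gbp2 was at 2.81, 2.03 and 2.19 CPM in NF-YA cKO, whereas the NF-YA fl/fl libraries had 4.55, 3.12 and 0.814 CPM. Its NF-YA cKO libraries lay within the range of the NF-YA fl/fl libraries (log2 fold change -0.27, standard error 0.55, FDR = 0.719). Gbp3 was at 0.464 ± 0.129 and 0.435 ± 0.320 CPM (log2 fold change 0.05, and -0.22 without NF-YA fl/fl replicate 3), and Gbp7 at 1.25 ± 0.0228 and 0.892 ± 0.290 CPM (0.49, FDR = 0.238).
A list of related interferon-inducible GTPases that are not members gave another picture. Like the members, this list was chosen with earlier results of these data known, so that the contrast is a description only. Of its 10 tested genes 6 were called lower and 0 higher, with a median log2 fold change of -1.84, where 7.67% of all tested genes were called lower. Its summed level was 46.4, 42.1 and 49.2 CPM in NF-YA cKO, against 227, 188 and 133 CPM for NF-YA fl/fl. Gbp6 fell from 63.0 ± 25.8 to 6.32 ± 1.53 CPM (log2 fold change -3.31, FDR = 0.000913). Gbp9 fell from 63.3 ± 7.41 to 16.8 ± 0.518 CPM (log2 fold change -1.91, FDR = 0.000136).
Gbp4, Gbp8, Irgm2 and Iigp1, named after their values were seen, were the other genes called lower. Gbp4, Gbp6, Gbp8 and Gbp9 form a cluster on chromosome 5 (105012513 to 105295871, GRCm38) apart from the members on chromosome 3, and reads shared between such copies are split by an estimate. The genes of the list called lower numbered 3 without NF-YA cKO replicate 1 or 2 and without NF-YA fl/fl replicate 1, and 4 to 5 without the other libraries. The difference between the members on chromosome 3 and the cluster on chromosome 5 was not tested.

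**Figure D4:**
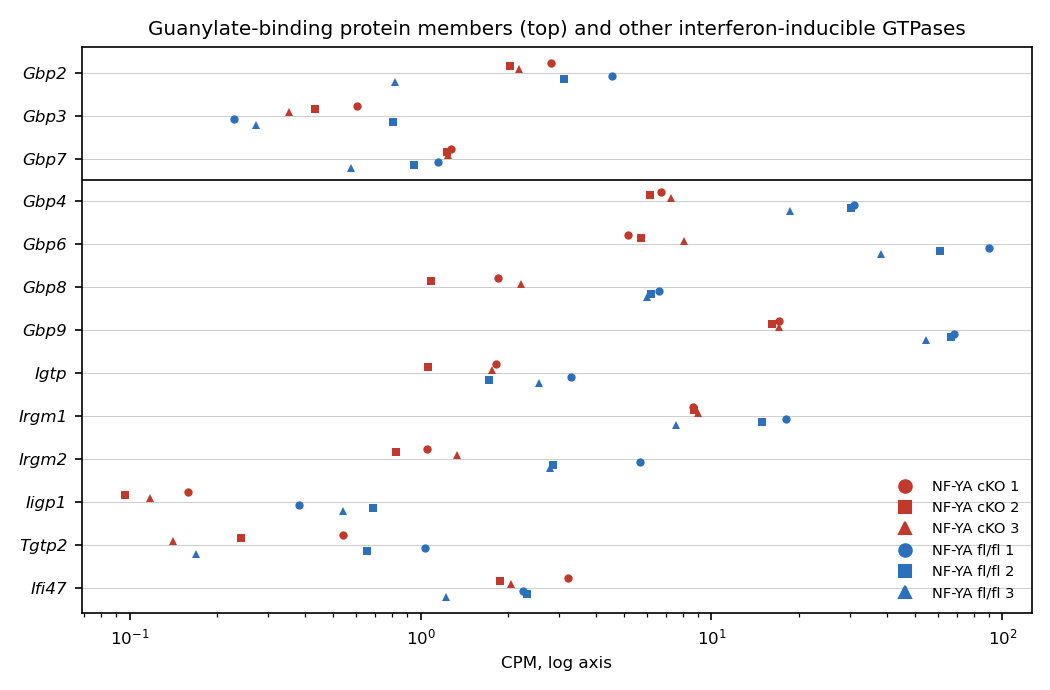
CPM by library on a log axis for the 3 guanylate-binding protein members (above the line) and for the 10 tested genes of the GTPase list (below it). The red points of Gbp4, Gbp6, Gbp8 and Gbp9 all lie to the left of the blue points, and those of Gbp2 and Gbp3 are mixed with them.

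Parp9, Dtx3l and Parp14, which act in ubiquitin and ADP-ribose modification after interferon or DNA damage, had log2 fold changes above 0 and none was called. Parp9 was at 4.85, 4.13 and 4.42 CPM in NF-YA cKO, whereas the NF-YA fl/fl libraries had 4.40, 3.36 and 1.63 CPM. The groups overlapped (log2 fold change 0.51, FDR = 0.278). Dtx3l, its partner ubiquitin ligase, was at 6.35 ± 0.414 and 5.45 ± 1.76 CPM (0.22, FDR = 0.507), and Parp14 at 3.90 ± 0.923 and 2.69 ± 0.487 CPM (log2 fold change 0.53, FDR = 0.132).
The list of further interferon-stimulated genes gave few calls. Of its 44 tested genes 1 was called higher and 1 lower (background 4.65% and 7.67%), with a median log2 fold change of 0.36. Slfn5, a Schlafen family gene, rose from 11.8 ± 1.72 to 24.7 ± 4.01 CPM (log2 fold change 1.06, FDR = 0.00389). Tor3a, a torsin ATPase, fell by 1.02 on the log2 scale (FDR = 0.00123). Rnf213 and Zc3hav1, the highest of that list by CPM, had log2 fold changes of 0.89 and 0.39. Of 9 tested class II genes 2 were called higher and 2 lower. Ctss, the cysteine protease cathepsin S that is abundant in macrophages, rose from 0.662 ± 0.296 to 24.7 ± 9.34 CPM (log2 fold change 5.20, FDR = 0.000466). Ciita, the master regulator of class II, fell by 2.12 on the log2 scale (FDR = 0.00440).

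Among transcripts, 20 tested members had 2 or more annotated forms, with 66 transcripts that received counts. The share of a transcript in the TPM of its gene did not overlap between the genotypes for 4 of the 66, where 16.9% of the transcripts of all tested genes did so. For these 4 the exact permutation test gave p = 0.1, the smallest two-sided p that 3 libraries against 3 allow (adjusted p = 0.978). The form NM_001291153.1 of Xaf1, the main form of this gene, held 93.6%, 89.8% and 89.2% of its TPM in NF-YA cKO and 52.7%, 66.7% and 90.7% in NF-YA fl/fl. The groups overlapped (exact permutation test, two-sided, p = 0.3). For H2-K1 the form NM_001001892.2 held 87.4% ± 2.52 and 85.7% ± 2.76 (exact permutation test, p = 0.3).

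Members with and without a motif were then set side by side. The 15 tested members with the ISRE pattern had a median log2 fold change of 0.05, 8 above 0 and 7 below, and the 15 matched members without it had a median of 0.15. Oas1a and Ifit1 both carry the pattern. The medians were 0.44 for the 8 members with the GAS pattern and -0.11 for the 22 without it. The 13 tested members with a CCAAT box had a median of 0.15 and the 17 without it a median of 0.05. These values are a description, with no test.

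Marker levels of several cell types differed between the genotypes, and in such bulk samples fewer cells of a type and less RNA per cell cannot be told apart. The share over all tested genes was 4.65% called higher and 7.67% called lower. Satellite cell and myoblast markers were present in all libraries, and 2 of 10 tested were called lower, Des and Cdh15. Their list summed to 1742, 1782 and 1888 CPM in NF-YA cKO, against 2983, 2473 and 4102 CPM for NF-YA fl/fl. At an FDR under 0.05 with no fold threshold, 3 of these markers were higher and 4 lower (background 19.7% and 18.9%). All 11 markers of differentiated muscle were lower in NF-YA cKO, with a summed level of 631 to 1418 CPM against 44527 to 54144 CPM. Of 21 tested macrophage and monocyte markers 18 were called higher and 0 lower, with a median log2 fold change of 3.47. Their summed level was 345, 371 and 198 CPM in NF-YA cKO, against 19.2, 27.8 and 13.5 CPM for NF-YA fl/fl. Lyz2, the lysozyme of macrophages, rose from 4.08 ± 2.14 to 165 ± 55.5 CPM (log2 fold change 5.33, FDR = 0.000567), and Msr1, a scavenger receptor, from 0.409 ± 0.0659 to 9.57 ± 2.82 CPM (log2 fold change 4.52, FDR = 0.000239). Ptprc (CD45) and Itgam (CD11b), against which the depletion is directed and which were named after their values were seen, were among the 18. None of the 25 listed markers was at 0 counts in all libraries of a genotype. The markers called higher numbered 10 without NF-YA cKO replicate 1, 7 without NF-YA cKO replicate 2 and 9 without NF-YA fl/fl replicate 1. The summed level of the 39 members was 409, 368 and 365 CPM in NF-YA cKO, against 357, 320 and 414 CPM for NF-YA fl/fl.
Of 8 tested Schwann cell markers 5 were higher and 1 lower (background 4.65% and 7.67%). Their summed level was nevertheless lower in NF-YA cKO, at 91.4 ± 5.81 against 168 ± 46.4 CPM. For 8 endothelial markers 2 were higher and 1 lower, and for 11 markers of fibro-adipogenic progenitors 2 were higher and 0 lower. Lists with 1 or 2 calls in a direction are short, and their shares were not tested against this background. Among 7 pericyte and smooth muscle markers 2 were lower and 0 higher. The neutrophil and mast cell list had 2 of 4 tested genes higher and the dendritic cell list 1 of 3. Of T and NK cell markers 2 were tested with 0 called, and no B cell marker was tested. Those B cell genes summed to 0.238 to 0.327 CPM in any library, and Ms4a1 was at 0 counts in all 6. The part of any of these cells in the values of Oas1a, Ifit1, the GTPases or the class I genes was not tested.

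**Figure D5:**
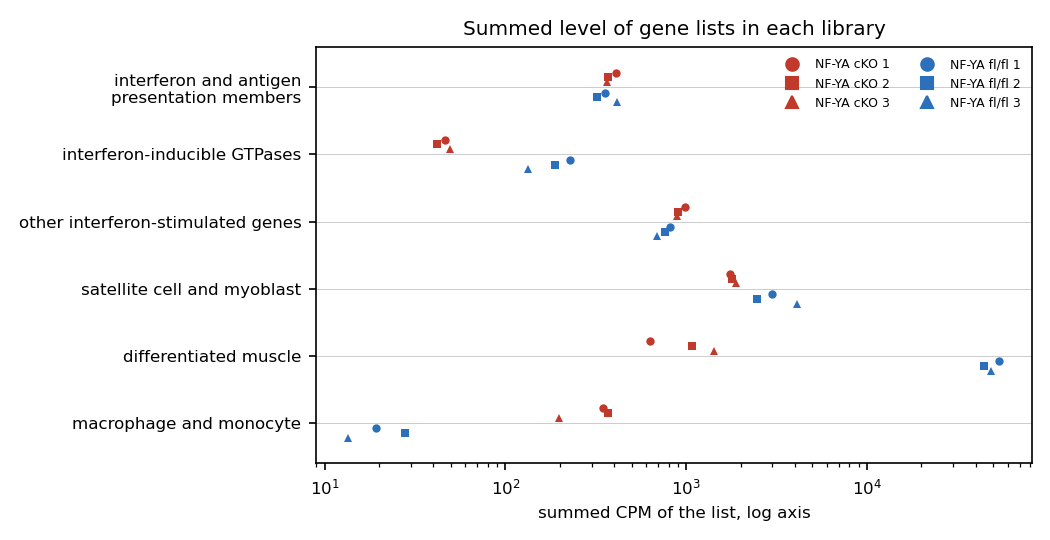
Summed CPM of 6 gene lists in each library on a log axis. The members lie between 320 and 414 CPM in all 6 libraries. The GTPases, satellite cell and myoblast markers and differentiated muscle markers are lower in all NF-YA cKO libraries (red) than in NF-YA fl/fl (blue). The macrophage markers are higher in all NF-YA cKO libraries.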

How the data were processed

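RNA-seq of cultured satellite cells was analysed in 6 libraries, 3 of each genotype. The authors mapped the reads with Bowtie2 to mouse transcripts (mm10), used RSEM for quantification, and deposited per gene and per transcript the expected counts, TPM and the percentage of a gene's TPM that each transcript carries. Expected counts split reads shared by related genes by an estimate. TPM values share a fixed total, so abundant muscle genes can shift all others.

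Expected counts were rounded, and genes whose count exceeded 10 in 2 or more libraries entered edgeR 4.0.16 (quasi-likelihood, TMM, Benjamini-Hochberg over all tested genes, genotype only) in R 4.3.3. The standard error is the log2 fold change over the square root of F. DESeq2 1.42.0, limma 3.58.1, other filters and scalings, the replicate block and omission of each library were the alternatives. Transcript shares were compared by exact permutation (two-sided). The edgeR step was tested on simulated data with the same spread in both groups. It recovered 188 of 194 changed genes and made 1 false call among 16826 unchanged genes. This does not cover the unequal spread of the groups here (biological coefficient of variation 0.105 and 0.310). Ratios of summed counts have exact Clopper-Pearson intervals. Intervals and floors (3 counts) cover counting error only. The sources used here do not state whether the libraries came from separate mice, so p-values measure the spread between these samples, which may be technical.

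Members and gene lists were chosen with earlier results of these data known. Each tested member is named. Called members and the member of highest TPM in each role are given by library, and from each list at most 4 genes qualify for naming (the 2 most abundant and up to 2 called). Places and promoters come from RefSeq tables (GRCm38.p6), in which 31 of 39 members had a promoter. Figures were drawn with matplotlib 3.10.9.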

Additional observations from a re-analysis of the deposited data

How the results depend on the processing

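The values that move most with the processing are the counts of calls, which rest on 3 libraries a group. The log2 fold changes of tested members were compared under each alternative. Of these, 539 kept their direction and their side of the threshold, 13 lost a call, 9 gained one and 14 changed sign. Many were bound to keep their direction, since the setting with an FDR under 0.05 and glmTreat retain the log2 fold changes of the main fit. Most members were not called in the main fit, and these count as kept while they stay uncalled. The median over all genes stayed between -0.089 and 0.038, and that over the members between 0.041 and 0.211. Depth limits the low members, such as Isg15 in NF-YA cKO and Oas1a in NF-YA fl/fl, with 6 counts or fewer in each of these libraries.

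DESeq2 called 1 member higher (Oas1a) and 2 lower (Ifit1 and Ifit3), and 986 and 1804 of all 17348 tested genes. An FDR under 0.05 with no fold threshold gave 3 members higher and 5 lower, 3418 and 3285 of all tested genes, and 26 and 19 of the other interferon pathway genes. With glmTreat, which tests against a log2 fold change of 1, these counts were 0 and 0, 97 and 510, and 1 and 2, and 2 GTPases were lower. With limma on log2(TPM + 1) they were 0 and 0, 231 and 704, and 1 and 4. With limma on log2(TPM + 0.1), 361 of all tested genes were higher, 2 pathway genes were higher and 4 lower, and 3 GTPases were lower. For these alternatives the cause was not tested.

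With each of the 6 libraries omitted once, 0 to 2 members were called higher and 0 to 2 lower, against 1 and 1 with all libraries. All tested genes called higher numbered 177 to 890 and lower 523 to 1684, against 806 and 1331. The pathway genes called numbered 2 to 6 higher and 4 to 10 lower, against 6 and 10. The GTPases called lower numbered 3 to 5, the macrophage markers called higher 7 to 16, and the transcript shares without overlap 7 to 15, where fewer libraries make a separation easier by construction. Over the same omissions the log2 fold change ran from -0.111 to 0.591 for Ddx58, -0.194 to 0.121 for Dhx58, -0.265 to 0.223 for Ifit2, -0.204 to 0.677 for Oasl1, -0.718 to 0.231 for Gbp2, -0.245 to 0.852 for Gbp3, -0.244 to 1.398 for Psmb9 and -0.662 to 0.536 for Tap1. For Dhx58 it was also 0.0148 with library size alone in place of TMM.

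Replicate numbers are shared between the genotypes, but the labels do not tie them to a mouse, litter or day. The deviations of same-numbered libraries from their group means correlated at 0.224, -0.116 and 0.052 across genes, so that the numbers were not taken to pair the samples. With the replicate block 1 member was called higher (Oas1a) and 0 lower, and 3 pathway genes were higher and 6 lower. All tested genes called higher numbered 625 and lower 947.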
